A study of Mus musculus with 217 samples.

Results

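The circadian clock genes followed here are 10 genes chosen by symbol, with no threshold on their values: *Arntl* (which encodes BMAL1), *Clock*, *Npas2*, *Per1*, *Per2*, *Per3*, *Cry1*, *Cry2*, *Nr1d1* and *Dbp*. All 10 stood in both deposited tables, among 54532 genes, and all 10 were kept by the filter of at least 1 count in each tissue and age. The clock of a cell is a feedback loop of transcription. BMAL1 pairs with CLOCK or with its relative NPAS2 and binds E-boxes, short DNA motifs in the promoters of the *Per* and *Cry* genes, of *Nr1d1* and of *Dbp*; PER and CRY proteins then repress BMAL1, and NR1D1 (REV-ERBα) represses *Arntl*, so that *Arntl* and *Dbp* transcripts peak at opposite times of day. In the forebrain this loop follows light signals relayed from the suprachiasmatic nucleus of the hypothalamus, and also feeding, stress hormones and neuronal activity. The level of each gene therefore depends on the time of day at which tissue was collected. The labels give no time of collection, and each mouse was sampled at 1 time, so a shift in phase and a change in mean level cannot be told apart in any comparison below.

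RNA-Seq libraries were made from striatum and cerebral cortex of C57BL/6 mice aged 6 or 12 months, 217 libraries in all. The LacQ140 allele (Hdh(LacO-140Q/+), on a beta-actin-LacIR background) is a Huntington's disease knock-in of expanded *Htt* (m*Htt*) that holds Lac operator sequences, through which a Lac repressor can silence it. All mice, the controls included (Hdh(LacO-+/+)), carried a transgene that expresses the Lac repressor from the ubiquitous β-actin promoter, so that m*Htt* was lowered in the whole body unless the inducer IPTG was given. LacQ140 mice received IPTG from embryonic day 5 (E5) until collection and express m*Htt*, LacQ140_A mice never received it, and LacQ140_2M and LacQ140_8M mice had it withdrawn at 2 or 8 months (LacQ140_8M at 12 months of age only). WT + IPTG mice received IPTG as LacQ140 mice did, and WT mice received none. Groups were of 10 mice (5 per sex) for each tissue and age; in striatum at 12 months, WT, LacQ140 and LacQ140_8M had 9 mice, with 4 females. Cages were uniform for sex, genotype and treatment, so cage and group cannot be told apart. The 6- and 12-month mice were deposited in 2 separate count tables, so age and any batch that went with it cannot be told apart either. No gene was compared between ages.

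Each gene lies on the GRCm38 build as follows, by the GENCODE vM21 annotation. *Arntl* lies at chr7:113207465-113314126, *Clock* at chr5:76209868-76304792, *Npas2* at chr1:39193731-39363236, *Per1* at chr11:69095217-69109960 and *Per2* at chr1:91415982-91459324. *Per3* lies at chr4:151003652-151044665, *Cry1* at chr10:85131700-85185064, *Cry2* at chr2:92403646-92434043, *Nr1d1* at chr11:98767932-98775333 and *Dbp* at chr7:45705088-45710203. Some exons are shared with genes of the opposite strand: 18.01% of the exon length of *Dbp* lies in *Sphk2*, 8.55% of *Nr1d1* in *Thra* and 4.67% of *Cry2* in D930015M05Rik. Whether reads were counted by strand is not given in the sources used here, so these reads could not be assigned to either gene with certainty.

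The motifs through which the loop acts were searched for in RefSeq promoter windows of GRCm38.p6, from 250 bases before to 50 bases after each annotated start, on both strands; 9 of the 10 genes, all but *Per2*, had such windows (13 windows). The E-box CACGTG stood in the windows of *Per1* and *Cry1* (7.15% of all 32851 windows hold it), and its variant CACGTT in those of *Cry1*, *Cry2* and *Nr1d1* (4.68%). The D-box TTATGTAA, the motif of *Dbp* and its relatives, stood in 2 places in the window of *Per3* (0.938%). The core of the element bound by NR1D1, TAGGTCA, stood in the window of *Arntl* (2.61%). Stretches around the CACGTG, TTATGTAA and TAGGTCA matches are printed 5′ to 3′ on the strand of the gene, with those matches in capitals, to show where the motifs of the loop stand. A match is a string of letters and no measured site.
Per1 (chr11:69098743-69098828, + strand): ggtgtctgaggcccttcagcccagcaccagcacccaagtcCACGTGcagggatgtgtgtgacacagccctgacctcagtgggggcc
Cry1 (chr10:85185069-85185154, - strand): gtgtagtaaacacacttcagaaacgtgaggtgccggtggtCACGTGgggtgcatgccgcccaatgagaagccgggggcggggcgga
Arntl (chr7:113207530-113207558, + strand): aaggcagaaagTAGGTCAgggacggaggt
Per3 (chr4:151044776-151044910, - strand): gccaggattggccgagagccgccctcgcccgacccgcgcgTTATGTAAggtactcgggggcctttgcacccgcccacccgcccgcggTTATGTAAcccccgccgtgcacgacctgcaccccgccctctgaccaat

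The *Per1* stretch lies in an intron of a longer *Per1* transcript, 166 bases before the start of a shorter one. The *Cry1* match lies 60 bases before its start, both *Per3* matches lie upstream of *Per3* in the span of a *Camta1* intron, and the *Arntl* match lies 30 bases past the start, in the 5′ untranslated region.

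Summed counts per library ran from 33292014 to 68038785. *Htt*, the targeted gene, was counted over both alleles, and its mean in the 6-month striatum was 116.1 CPM ± 14.9 in WT, 111 ± 11.5 in WT + IPTG, 102 ± 10.9 in LacQ140, 87.7 ± 8.3 in LacQ140_A and 88.9 ± 8.9 in LacQ140_2M mice (SD, n = 10 each; CPM is the count scaled to library size with TMM factors). At 12 months its means there were 134 CPM in WT, 146 in WT + IPTG, 111 in LacQ140, 93.4 in LacQ140_A, 100.3 in LacQ140_2M and 110.9 in LacQ140_8M mice. In the 6-month cortex they were 123, 120, 93.7, 81.5 and 76.9 CPM in WT, WT + IPTG, LacQ140, LacQ140_A and LacQ140_2M mice, and in the 12-month cortex 28.1, 26.4, 23.9, 17.0, 17.7 and 18.0 CPM with LacQ140_8M last. The LacQ140_A group was lower than WT in all 4 sets (edgeR, adjusted p of 0.00408 or less). LacQ140 was itself lower than WT + IPTG in the 12-month striatum (log2 fold change -0.40, adjusted p = 9.03e-06) and the 6-month cortex (-0.36, adjusted p = 0.00428). Against LacQ140 no lowering group passed the full rule for *Htt* in any set. All log2 fold changes of the lowering groups against LacQ140 were below 0, from -0.49 in LacQ140_A in the 12-month cortex (adjusted p = 0.186) to -0.00 in LacQ140_8M in the 12-month striatum (adjusted p = 1), and the one with an adjusted p under 0.05 was LacQ140_A in the 12-month striatum (-0.25, adjusted p = 0.0490), under the 20% bound. The alleles cannot be told apart in these counts. Markers of striatum (*Drd1*, *Drd2*, *Adora2a* and others) summed to between 2750 and 6500 CPM in striatum libraries and to at most 329 CPM in cortex libraries, so tissues stood as labelled. Libraries with at least 5 times the median sum of a marker list of another tissue or of blood numbered 3 and 6 in the 6- and 12-month striatum and 7 and 20 in the 6- and 12-month cortex, mostly through choroid plexus genes; counts of called genes below were recomputed without them. The slope of log2 CPM on log2 exon length over genes, a measure of how far a library favours long transcripts, had group means of 0.25 to 0.41 in the other sets and of -0.16 to -0.08 in the 12-month cortex.

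Per kilobase of exon, the mean level in the 12-month striatum was highest for *Dbp* (38.9 CPM per kb), *Nr1d1* (35.1), *Cry2* (25.4) and *Per1* (22.4), and lowest for *Clock* (4.55), *Arntl* (4.18) and *Per3* (2.78). The genes differed in how much they varied over mice. *Per2* spanned 4.45-fold in the 12-month striatum, from 19.8 CPM to 87.99 CPM, whereas *Cry2* spanned 1.45-fold, from 128 CPM to 186 CPM. *Per2* also had the widest span in the other 3 sets (3.87-fold to 5.26-fold).

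The first question was whether full m*Htt* expression went with altered clock genes in the 12-month striatum, by LacQ140 against WT + IPTG mice. Of the 10 genes, 7 fell and none rose, where a call needs an adjusted p-value under 0.05 over all genes and a change of at least 20%. The 7 were the activator genes *Npas2* and *Arntl*, the repressor genes *Per1*, *Per2* and *Per3*, *Nr1d1*, and the output gene *Dbp*. In this comparison 4.86% of all 35386 genes tested fell. The median log2 fold change of the 10 genes was -0.40, beside 0.00 over all genes. *Clock*, the partner of BMAL1, differed by 0.01 on the log2 scale (SE 0.075, adjusted p = 1).

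*Npas2* changed with the least overlap. This gene encodes the forebrain relative of CLOCK. Its lowest, median and highest values were 72.5, 80.1 and 94.5 CPM in WT + IPTG mice and 42.03, 49.8 and 57.7 CPM in LacQ140 mice. Every LacQ140 mouse lay below every WT + IPTG mouse. It fell by 0.72 on the log2 scale (SE 0.059, adjusted p = 7.01e-16). The 9 WT mice without IPTG lay from 74.9 CPM to 98.4 CPM, with a median of 84.7 CPM, and also did not overlap the LacQ140 mice. Among the lowering groups the medians were 58.4 CPM (LacQ140_A), 63.9 CPM (LacQ140_2M) and 54.9 CPM (LacQ140_8M), so the 3 lowering groups had medians between that of LacQ140 and those of the WT groups.

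The *Per* genes, whose products close the negative limb of the loop and which neuronal activity also induces, fell with wide spread. *Per2* ran from 46.3 CPM through a median of 70.5 CPM to 87.99 CPM in WT + IPTG mice and from 23.2 CPM through 34.1 CPM to 63.6 CPM in LacQ140 mice. The groups overlapped, and the log2 difference was -0.93 (SE 0.17, adjusted p = 1.47e-05). *Per1* had a lowest value of 100.6 CPM, a median of 177.3 CPM and a highest value of 213 CPM in WT + IPTG mice, against 66.3, 109 and 120 CPM in LacQ140 mice. Here too the groups overlapped in part, with a log2 difference of -0.74 (SE 0.12, adjusted p = 4.22e-06). *Per3* had medians of 30.3 CPM and 21.2 CPM and a log2 difference of -0.43 (SE 0.083, adjusted p = 7.20e-05).

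*Dbp*, a direct E-box target whose product drives further rhythmic genes, ran from 95.4 CPM through a median of 135.9 CPM to 187 CPM in WT + IPTG mice and from 55.7 CPM through 97.1 CPM to 104 CPM in LacQ140 mice. Of the 9 LacQ140 mice 4 lay below every WT + IPTG mouse, and the others overlapped that group. It fell by 0.58 on the log2 scale (SE 0.096, adjusted p = 3.49e-06). *Arntl* ran from 29.4 CPM through 39.96 CPM to 47.1 CPM in WT + IPTG mice and from 26.2 CPM through 31.3 CPM to 36.1 CPM in LacQ140 mice, a log2 difference of -0.37 (SE 0.092, adjusted p = 0.00206). *Nr1d1* had medians of 115.5 CPM and 96.4 CPM and a log2 difference of -0.29 (SE 0.059, adjusted p = 9.84e-05). *Arntl* and *Dbp* were thus both lower than in WT + IPTG mice. Against WT mice without IPTG their log2 differences were -0.05 and -0.68. The 2 *Cry* genes, the strongest repressors of the loop, were under the 20% bound, with log2 fold changes of -0.23 for *Cry1* (adjusted p = 0.0212) and -0.22 for *Cry2* (adjusted p = 0.00170).

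**Figure D1:**
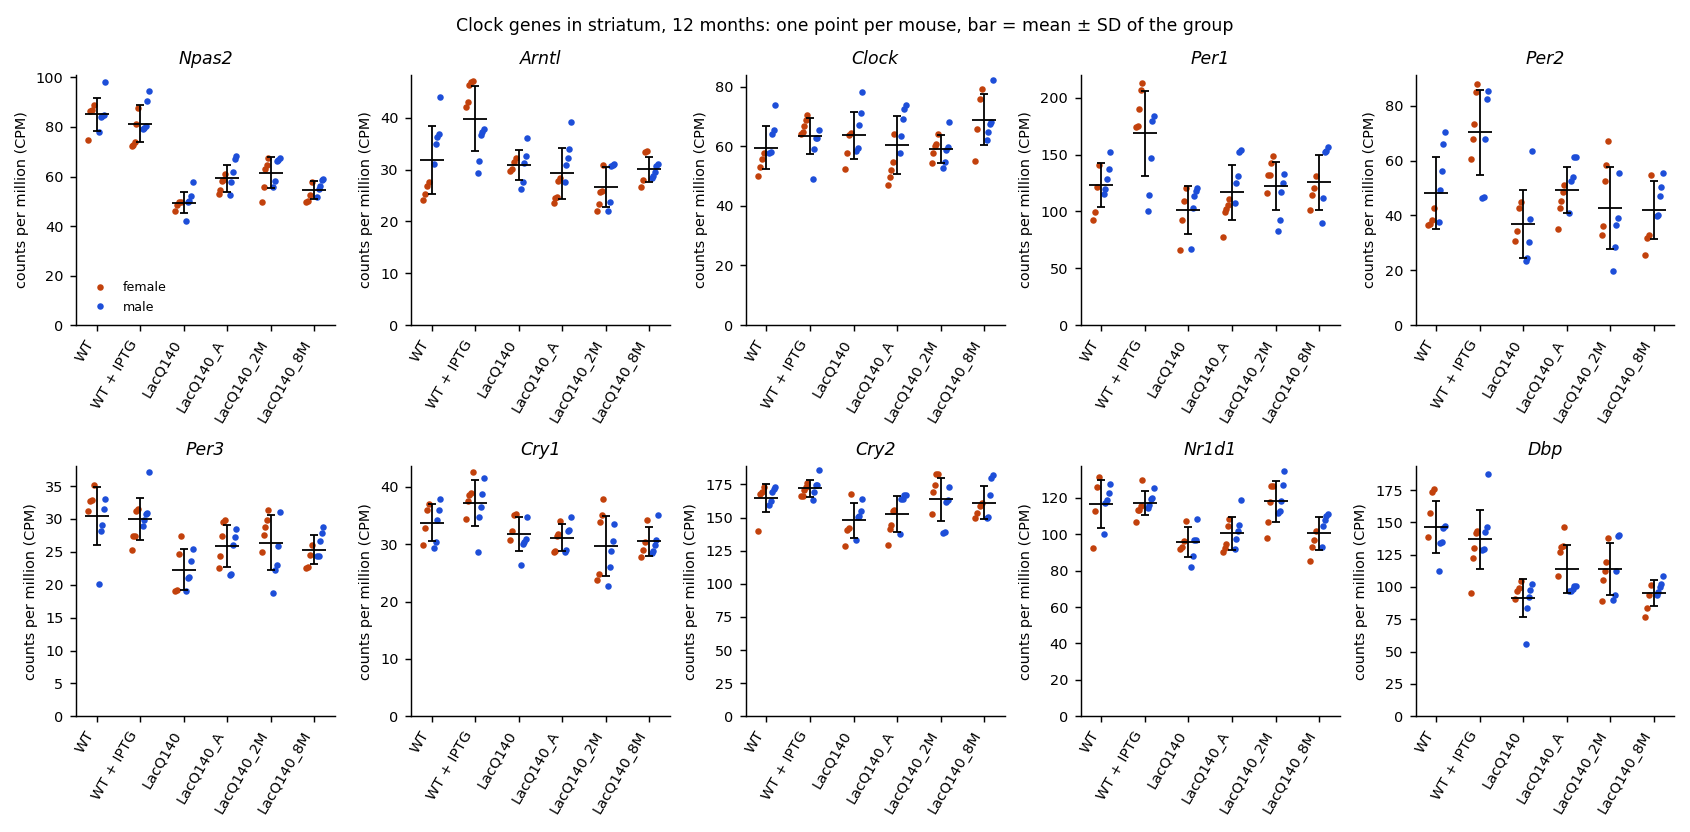
Levels of the 10 clock genes in CPM (y axes) in the 12-month striatum, 1 point per mouse, by group (x axis) and coloured by sex, with the group mean as a line and ± SD as bars. *Npas2* in the 9 LacQ140 mice (42.03 to 57.7 CPM) lies below every mouse of both WT groups, while *Arntl* of WT females (24.2 to 27.6 CPM) and WT + IPTG females (42.1 to 47.1 CPM) lie apart from each other.

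Markers of striatal neurons moved with these genes. *Drd1*, *Drd2*, *Ppp1r1b*, *Adora2a* and *Rgs9* fell in the same comparison, and the sum of the striatal marker list ran from 4440 CPM to 6500 CPM in WT + IPTG mice and from 2840 CPM to 3570 CPM in LacQ140 mice, with no overlap; in bulk tissue, fewer cells of a type and less RNA per cell cannot be told apart. Of 10 activity-induced genes, 7 fell and none rose (median log2 fold change -0.84), among them *Egr2* (-2.29) and *Arc* (-0.99). Of 10 glucocorticoid-responsive genes 3 fell (*Sgk1*, *Tsc22d3* and *Zbtb16*), and of 9 temperature-linked genes 4 fell, among them *Hspa1a* and *Hspa1b*, while the cold-inducible *Cirbp* (0.46) and *Rbm3* (0.44) rose. The part of these in the clock gene result was not tested. The LacQ140 M1 library held hypothalamic transcripts (109 CPM summed, against a median of 2.33 CPM over the set). All 5 blood markers fell, and among the cortex markers *Cux2* and among the hypothalamus markers *Hcrt* and *Pmch* rose. Without the 6 libraries high in markers of another tissue or of blood the count stayed at 7.

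The result depended on which WT group was the control for 3 of the 7 genes. Against the WT mice without IPTG, a comparison added after the data had been seen, 4 genes fell, where 7.71% of all genes were called in either direction. These were *Npas2* (log2 fold change -0.78, SE 0.060, adjusted p = 4.43e-17), *Dbp* (-0.68, SE 0.099, adjusted p = 1.92e-07), *Per3* (-0.45, SE 0.085, adjusted p = 6.44e-05) and *Nr1d1* (-0.29, SE 0.060, adjusted p = 0.000288). *Dbp* of the WT mice ran from 112 CPM to 176 CPM and did not overlap the LacQ140 mice. *Arntl* differed by -0.05 (SE 0.094, adjusted p = 0.868), *Per1* by -0.28 (SE 0.13, adjusted p = 0.158) and *Per2* by -0.38 (SE 0.17, adjusted p = 0.151). With both WT groups together as the control 6 genes fell (8.97% of all genes called), *Arntl* being the one that did not pass (-0.21, SE 0.081, adjusted p = 0.0737). Both versions use the same LacQ140 mice.

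**Figure D2:**
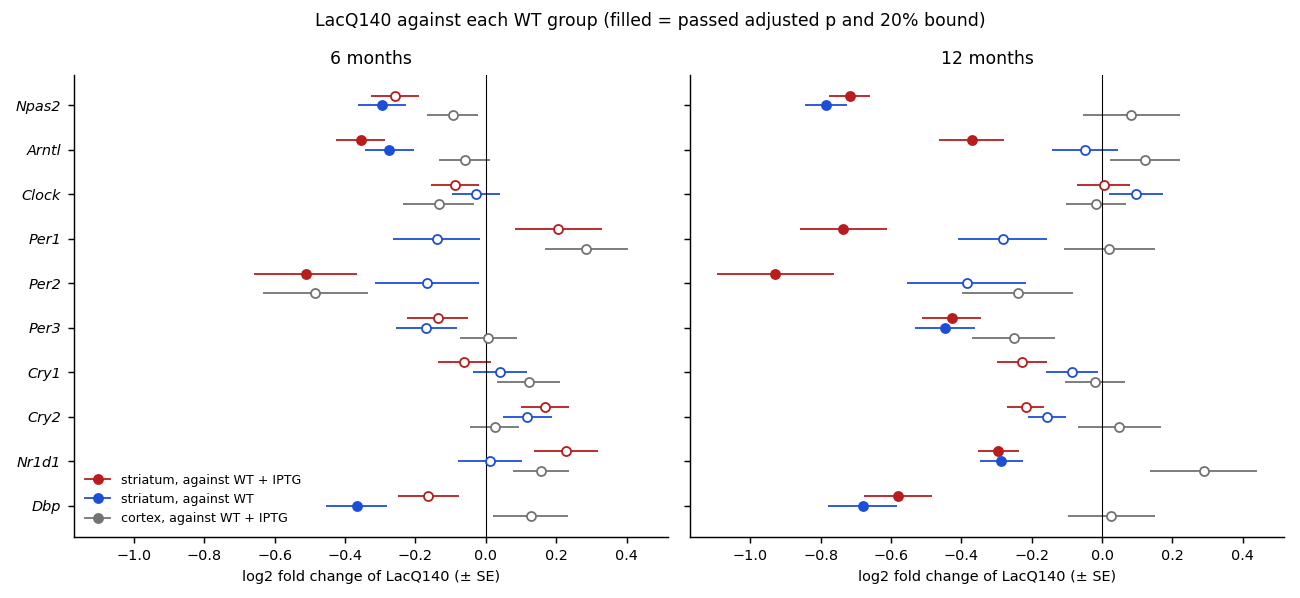
Log2 fold change (x axis, ± SE) of the 10 clock genes (y axis) in LacQ140 mice against WT + IPTG or WT mice in striatum and against WT + IPTG mice in cortex, at 6 months (left) and 12 months (right); filled points passed the adjusted p-value and the 20% bound. In the 12-month striatum *Npas2*, *Per3*, *Nr1d1* and *Dbp* are filled against both WT groups and *Arntl*, *Per1* and *Per2* against WT + IPTG mice, and no cortex point is filled.

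The effect of IPTG alone was read from WT + IPTG against WT mice, in which no clock gene passed in any tissue or age (0.584% of all genes were called in the 6-month striatum, 0.218% in the 12-month striatum, 0.609% in the 6-month cortex and 0.0% in the 12-month cortex). At an unadjusted p-value under 0.05, 4 clock genes differed in the 6-month striatum, 3 in the 12-month striatum and 1 in each cortex set, where 8.88%, 11.4%, 11.9% (6-month cortex) and 5.80% (12-month cortex) of all genes did, and DESeq2 also called none. The 3 genes in the 12-month striatum were *Arntl* (log2 fold change 0.32, SE 0.092, adjusted p = 0.102), *Per1* (0.45, SE 0.12, adjusted p = 0.0793) and *Per2* (0.54, SE 0.16, adjusted p = 0.118), the genes that were called in LacQ140 against one WT group and not against the other. In the 6-month striatum 5 of the 10 glucocorticoid-responsive genes rose with IPTG, *Zbtb16* (log2 fold change 1.40) among them, and of the activity-induced genes *Fos* (-0.87) and *Nr4a1* (-0.84) fell; in the 6-month cortex 5 activity-induced genes fell. Of the 5 thalamus markers 3 rose with IPTG in the 6-month striatum (summed medians of 63.3 CPM in WT and 114 CPM in WT + IPTG mice), as did *Ttr*. Their part in the clock gene values was not tested.

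In that comparison *Arntl* differed by sex. Of the WT mice, the 4 females had 26.8, 25.2, 27.6 and 24.2 CPM and the 5 males 31.1, 36.8, 36.3, 34.9 and 43.99 CPM. Of the WT + IPTG mice, the 5 females had 47.1, 46.4, 43.1, 46.8 and 42.1 CPM and the 5 males 36.8, 37.3, 37.8, 31.6 and 29.4 CPM. Females thus lay below all males without IPTG and above all males with it. *Arntl* was higher with IPTG in females (log2 fold change 0.80, SE 0.10, adjusted p = 3.41e-07) and not in males (-0.08, SE 0.094, adjusted p = 0.987), and the difference of the 2 effects, females minus males, was 0.88 (SE 0.14, adjusted p = 0.000185); 4.41% of all genes passed this test. Leaving out each of the 19 libraries in turn gave differences from 0.82 to 0.94, with adjusted p from 0.000138 to 0.00114.

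*Per1*, *Per2* and *Clock* of the females also rose with IPTG (log2 fold changes 0.75, 0.95 and 0.31, adjusted p = 0.000880, 0.00276 and 0.0267), so that 4 of the 10 rose in females, where 4.78% of all genes did, and *Dbp* of the females differed by -0.35 (adjusted p = 0.0574). For *Per1*, *Per2*, *Clock* and *Dbp* the difference between the sexes did not pass (adjusted p = 0.101, 0.184, 0.0610 and 0.0940). In LacQ140 against WT + IPTG mice, which shares the WT + IPTG mice with this comparison, *Arntl* fell in females (log2 fold change -0.54, adjusted p = 6.81e-05). There 4.32% of all genes fell in females. In males *Arntl* differed by -0.17 (adjusted p = 0.348), and the difference between the sexes did not pass (adjusted p = 0.370). *Arntl* in the cortex of 12-month mice differed between the sexes by 0.56 (SE 0.19) in the same direction without passing (adjusted p = 0.585), and the 6-month values were 0.12 (SE 0.14) in striatum and -0.08 (SE 0.13) in cortex. Over both sexes IPTG also went with higher *Egr4* (log2 fold change 0.82), *Hspa1a* (1.04) and *Hspa1b* (1.73) there. Since cages were uniform for sex and treatment, a difference of cages and a response of females to IPTG cannot be told apart here. In no other of the 22 comparisons did the effect on a clock gene differ between sexes by an adjusted p under 0.05, and at most 0.0922% of all genes passed there.

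Lowering of m*Htt* was read against LacQ140 mice, which are shared by the comparisons that follow. In the 12-month striatum LacQ140_2M mice had 2 higher clock genes (0.466% of all genes rose), *Npas2* (log2 fold change 0.32, SE 0.058, adjusted p = 0.000544) and *Nr1d1* (0.30, SE 0.059, adjusted p = 0.00105). *Nr1d1* ran from 97.7 CPM through 118 CPM to 135 CPM in LacQ140_2M mice and from 82.1 CPM through 96.4 CPM to 108.2 CPM in LacQ140 mice. These groups overlapped at their ends. The striatal markers *Adora2a* (log2 fold change 0.48) and *Rgs9* (0.30) rose and the hypothalamus markers *Hcrt* and *Pmch* fell in the same comparison, and their part was not tested. LacQ140_A mice had no called clock gene (0.910% of all genes were called; at an unadjusted p under 0.05, 4 clock genes and 10.4% of all genes, and *Npas2* by DESeq2), since the log2 fold change of *Npas2*, 0.26 (SE 0.058, adjusted p = 0.00550), lay just under the bound. LacQ140_8M mice had none (0.00565% of all genes; at an unadjusted p under 0.05, 4 clock genes and 5.13% of all genes, and none by DESeq2), and the smallest adjusted p-value of a clock gene was 0.865. *Arntl*, *Clock* and *Cry1* had log2 fold changes between -0.21 and 0.12 in all 3 lowering groups.

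Genotype was also compared without IPTG on either side, by LacQ140_A against WT mice, which shares no mouse with the comparison of LacQ140 and WT + IPTG. In the 12-month striatum 2 clock genes fell (1.91% of all genes fell). *Npas2* ran from 52.5 CPM through 58.4 CPM to 68.4 CPM in LacQ140_A mice and did not overlap the WT mice (log2 fold change -0.52, SE 0.058, adjusted p = 3.67e-10). *Dbp* ran from 96.5 CPM through 104.7 CPM to 147 CPM and overlapped them (-0.36, SE 0.096, adjusted p = 0.0105). Striatal marker sums were 3460 to 4510 CPM in LacQ140_A and 5090 to 5900 CPM in WT mice, and none of the 10 activity-induced genes was called here. The cortex marker *Cux2* rose (log2 fold change 0.46), and the part of these markers was not tested. *Nr1d1*, at -0.21 (adjusted p = 0.0149), was under the bound, and *Per1* (-0.08) and *Per2* (0.03) did not pass (adjusted p = 0.869 and 1).

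In the 6-month striatum LacQ140 mice had 2 lower clock genes than WT + IPTG mice (3.96% of all genes fell). *Arntl* ran from 33.2 CPM through 35.5 CPM to 43.99 CPM in WT + IPTG mice and from 24.1 CPM through 29.6 CPM to 34.4 CPM in LacQ140 mice, a log2 difference of -0.36 (SE 0.070, adjusted p = 0.000183). *Per2* had medians of 55.2 CPM and 38.03 CPM and a log2 difference of -0.51 (SE 0.15, adjusted p = 0.0127). Both overlapped between the groups. *Npas2* (-0.26, SE 0.068, adjusted p = 0.00627) lay just under the bound; against WT mice without IPTG it fell by 0.29 on the log2 scale (adjusted p = 0.00203), as did *Arntl* by 0.27 (adjusted p = 0.00551) and *Dbp* by 0.37 (adjusted p = 0.00250), while *Per2* differed by -0.17 (adjusted p = 0.603), in a comparison that called 5.85% of all genes. *Arntl* alone was called against both WT groups at this age. In LacQ140 against WT + IPTG mice 2 of the 10 glucocorticoid-responsive genes fell and *Fos* of the activity-induced genes rose, and the striatal markers *Drd1*, *Drd2*, *Ppp1r1b*, *Adora2a* and *Rgs9* fell. Of 5 thalamus markers 4 fell (summed medians of 114 CPM in WT + IPTG and 72.9 CPM in LacQ140 mice), the choroid plexus marker *Ttr* fell and 2 of 6 hypothalamus markers rose. Of the cortex markers *Neurod6* fell (-1.62) and *Cux2* rose (0.30), and of the temperature-linked genes *Cirbp* (0.57) and *Rbm3* (0.37) rose and *Chordc1* fell (-0.77). The part of all these was not tested; without the 3 libraries high in other markers 3 clock genes were called.

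Against LacQ140, 6-month LacQ140_2M mice had higher *Arntl* (log2 fold change 0.28, SE 0.070, adjusted p = 0.0218) and *Npas2* (0.30, SE 0.068, adjusted p = 0.00834), where 0.704% of all genes rose. LacQ140_A mice had higher *Npas2* (0.28, SE 0.068, adjusted p = 0.0101) and lower *Cry1* (-0.27, SE 0.077, adjusted p = 0.0406), where 1.88% of all genes were called. *Npas2* ran from 45.1 CPM to 63.1 CPM in LacQ140_2M, from 48.1 CPM to 57.4 CPM in LacQ140_A and from 34.4 CPM to 49.3 CPM in LacQ140 mice, so the groups overlapped by few mice. LacQ140_A mice had lower *Per2* than WT mice (-0.60, SE 0.15, adjusted p = 0.0272; 0.480% of all genes fell), with medians of 27.3 CPM and 40.9 CPM. Without the libraries high in markers of other tissues, 2 of them LacQ140_A mice (F1 and M1) with pituitary transcripts, *Cry1* and *Per2* were no longer called. The striatal markers *Drd1*, *Drd2*, *Adora2a* and *Rgs9* rose and the cortex marker *Cux2* and the hypothalamus marker *Avp* fell in both LacQ140_A and LacQ140_2M mice against LacQ140 mice at this age, and their part was not tested. These calls rested on single libraries: without the LacQ140 M2 library *Npas2* was not called in either lowering group, *Arntl* in LacQ140_2M mice was lost without any one of 4 libraries and *Cry1* in LacQ140_A mice without any one of 13.

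In the cortex no clock gene passed in any of the 11 comparisons. Of all genes, 0.881% were called at 6 months for LacQ140 against WT + IPTG, 0.425% for LacQ140_A against WT, 0.00834% for LacQ140_A and 0.0% for LacQ140_2M against LacQ140, and at 12 months 0.0899%, 0.0174%, 0.0435% and 0.0841% in the same order and 0.0% for LacQ140_8M against LacQ140. At an unadjusted p-value under 0.05 there were from 0 to 4 clock genes per comparison, where 2.83% to 13.2% of all genes were, and DESeq2 called none. The 4 were in LacQ140_A against LacQ140 at 6 months (7.47% of all genes), and the other 10 comparisons had 0 to 2. The widest differences were those of *Per2* at 6 months. Its median was 26.2 CPM in WT, 36.2 CPM in WT + IPTG, 24.8 CPM in LacQ140, 16.2 CPM in LacQ140_A and 23.8 CPM in LacQ140_2M mice, and log2 fold changes were 0.48 for WT + IPTG against WT (adjusted p = 0.124), -0.48 for LacQ140 against WT + IPTG (adjusted p = 0.0984) and -0.50 for LacQ140_A against WT (adjusted p = 0.122). In the test of any difference among the groups, *Per2* (adjusted p = 0.000543) and *Per3* (adjusted p = 0.0237) passed in the 6-month cortex, where 3.36% of all genes did, and no clock gene did in the 12-month cortex (0.484%; none at an unadjusted p under 0.05). The same test was passed by *Arntl*, *Npas2*, *Per2*, *Cry1* and *Dbp* in the 6-month striatum (12.3% of all genes) and by all but *Clock* (adjusted p = 0.166) in the 12-month striatum (17.5%).

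**Figure D3:**
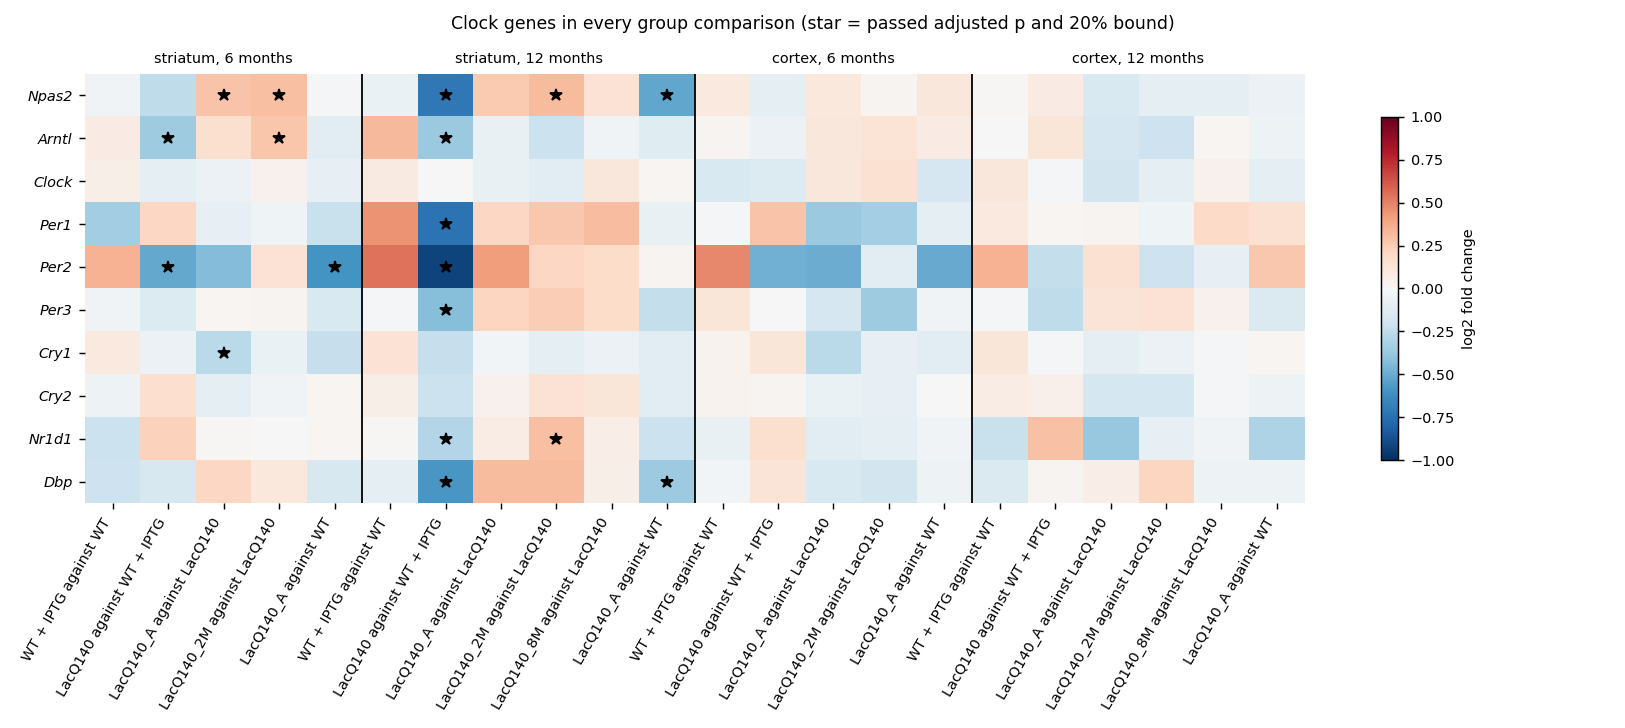
Log2 fold change (colour scale) of the 10 clock genes (rows) in the 22 group comparisons (columns) by tissue and age; a star marks an adjusted p-value under 0.05 with a change of at least 20%. Stars stand in striatum only, 7 of them in the 12-month column of LacQ140 against WT + IPTG.

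Whether striatum and cortex of the same mice differed was tested directly. For LacQ140 against WT + IPTG the log2 fold change in striatum was below that in cortex for 6 genes at 12 months (2.82% of all genes passed in either direction): *Npas2* by -0.83 (SE 0.14, adjusted p = 2.2e-05), *Per1* by -0.73 (SE 0.12, adjusted p = 1.1e-05), *Per2* by -0.68 (SE 0.13, adjusted p = 0.000495), *Dbp* by -0.60 (SE 0.097, adjusted p = 1.8e-05), *Nr1d1* by -0.57 (SE 0.15, adjusted p = 0.0237) and *Arntl* by -0.49 (SE 0.099, adjusted p = 0.000896). At 6 months *Arntl* alone passed (-0.30, SE 0.079, adjusted p = 0.0389; 1.19% of all genes). In the other 9 comparisons no clock gene passed (smallest adjusted p = 0.0793; at most 0.577% of all genes). The 12-month cortex libraries had the other slope on exon length given above, and *Npas2* and *Nr1d1* moved with it over those libraries (r = 0.849 and 0.851 after group means were removed); the part of that in these differences was not tested. In the 12-month cortex, summed choroid plexus markers were at least 5 times the median of the set in 6 of the 10 LacQ140 libraries and in 3 of the 10 WT + IPTG libraries. Without the mice with a library high in markers of another tissue or of blood, a fit added after the data had been seen, which left 4 LacQ140 and 4 WT + IPTG mice at 12 months, *Npas2* (-0.82, SE 0.20, adjusted p = 0.0330) and *Dbp* (-0.68, SE 0.16, adjusted p = 0.0292) passed, where 0.709% of all genes did. *Nr1d1* (-0.64), *Per1* (-0.55), *Per2* (-0.55) and *Arntl* (-0.48) kept their sign and did not pass (adjusted p from 0.135 to 0.223), and *Arntl* at 6 months (-0.34, adjusted p = 0.106) did not either.

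Levels in the pooled mice of the WT and WT + IPTG groups differed by tissue too. At 6 months, in 20 such mice with both tissues, 6 clock genes were higher in striatum (15.9% of all genes were): *Dbp* by 1.34 on the log2 scale (SE 0.053), *Cry1* by 0.67 (SE 0.041), *Npas2* by 0.67 (SE 0.043), *Per2* by 0.63 (SE 0.056), *Per1* by 0.34 (SE 0.055) and *Arntl* by 0.33 (SE 0.048). *Dbp* ran from 82.95 CPM to 159 CPM in striatum and from 33.9 CPM to 60.4 CPM in cortex, and each of the 20 mice had more in striatum. *Clock* (-0.15, adjusted p = 0.0510), *Cry2* (0.00) and *Nr1d1* (0.02) did not pass, and *Per3* (0.24, adjusted p = 0.000245) lay under the bound. At 12 months all 10 genes were higher in striatum in all 19 mice of the 2 WT groups, by 0.86 (*Clock*) to 2.37 (*Npas2*) on the log2 scale, but there 25.9% of all genes were higher and no cortex library reached the slope on exon length of any striatum library.

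No clock gene differed between females and males by the full rule when averaged over groups (0.279% of all genes were called in the 6-month striatum, 0.218% in the 12-month striatum, 0.192% and 0.154% in the 6- and 12-month cortex). *Nr1d1* in the 6-month striatum was nearest, with a log2 difference, females minus males, of 0.23 (SE 0.050, adjusted p = 0.0145), under the bound. At an unadjusted p-value under 0.05 there were 3, 2, 2 and 1 clock genes in the 4 sets in that order, where 10.1%, 10.4%, 11.1% and 5.80% of all genes were, and DESeq2 also called none.

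Mice of the same group and sex still differed, and whether they did so alike in both tissues was read from 50 mice at 6 months and 57 mice at 12 months, as the correlation of log2 CPM in striatum and cortex after the means of group and sex were removed. By Pearson's r *Per2* deviated together in the 2 tissues most, with r = 0.811 at 6 months and 0.746 at 12 months (Spearman's rho 0.743 and 0.754, two-sided permutation p = 1e-05 for each, the smallest that 100000 permutations can give, and adjusted p = 4e-05 for r over 20 correlations). By rho *Cry1* was highest at 12 months (0.775). *Per1* had r = 0.754 and 0.656 (rho 0.737 and 0.585), *Cry1* 0.654 and 0.735 (rho 0.587 and 0.775) and *Dbp* 0.578 and 0.662 (rho 0.489 and 0.620), with two-sided permutation p from 1e-05 to 0.00012 and adjusted p of 0.0003 or less for each r. Mice with high *Per1*, *Per2*, *Cry1* or *Dbp* in one tissue thus tended to have high levels in the other. Without the 2 mice farthest from the median the r of these 4 genes lay between 0.575 and 0.746.

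For comparison, the median r over 13067 genes was 0.18 at 6 months and over 12459 genes 0.075 at 12 months, as a description. By r among these genes the 4 genes above ranked from 32 to 377. *Npas2* ranked 1127 at 6 months and 701 at 12 months. At 6 months *Cry2* ranked 1061 and *Nr1d1* 1459, so many other genes had values as high. The adjusted p-values here are over the 20 correlations of clock genes and not over all genes. *Npas2* (0.449 and 0.382, permutation p = 0.00141 and 0.0143, adjusted p = 0.00313 and 0.0221) also passed at both ages. *Arntl* passed at 12 months (0.440, permutation p = 0.00402, adjusted p = 0.00670) and not at 6 months (0.341, permutation p = 0.0357, adjusted p = 0.0510), and *Cry2* (0.457, adjusted p = 0.00636) and *Nr1d1* (0.417, adjusted p = 0.00522) passed at 6 months. *Clock* passed at neither age (0.074 and 0.167), nor did *Per3* (0.327 and 0.178). With group means removed and those of sex left in, *Clock* at 12 months (r = 0.331, adjusted permutation p = 0.0286) passed. So did *Per3* (r = 0.375, adjusted permutation p = 0.0144) and *Arntl* (r = 0.428, adjusted permutation p = 0.00489) at 6 months. When each library's slope on exon length was removed first, the 4 leading genes had r between 0.595 and 0.828, and *Npas2* at 12 months no longer passed (r = 0.235), while *Arntl* at 6 months (r = 0.542, adjusted permutation p = 0.00148) and *Clock* at 12 months (r = 0.362, adjusted permutation p = 0.0235) did. The part of the time of collection, which the labels do not give, was not tested.

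**Figure D4:**
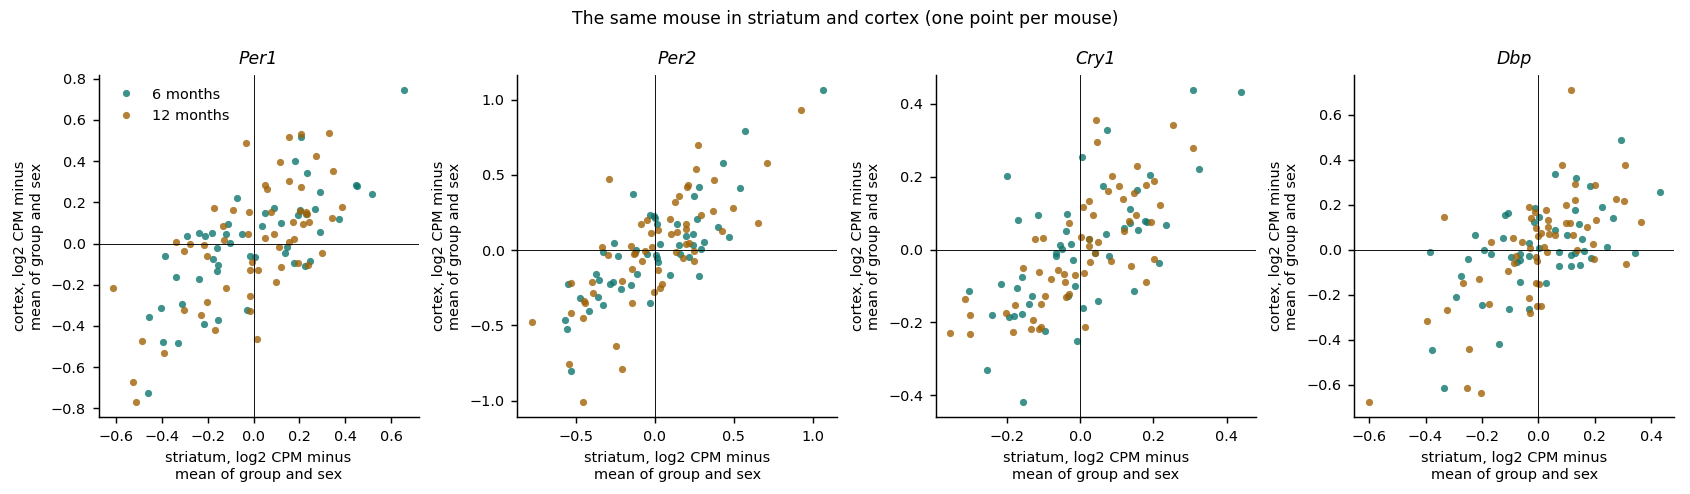
Deviation of log2 CPM from the mean of group and sex in striatum (x axes) and cortex (y axes) for *Per1*, *Per2*, *Cry1* and *Dbp*, 1 point per mouse, coloured by age. Points follow a rising line for all 4 genes, with r from 0.578 (*Dbp*, 6 months) to 0.811 (*Per2*, 6 months).

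*Arntl* and *Dbp* lie at opposite phases of the loop, and their deviations from the group mean were compared over mice in the same tissue. They ran against each other in the 12-month striatum (r = -0.569, rho = -0.552, two-sided permutation p = 1e-05 and adjusted p = 4e-05 for r over 4 correlations, 57 mice) and in the 6-month cortex (r = -0.626, rho = -0.649, permutation p = 3e-05, adjusted p = 6e-05, 50 mice). In the 6-month striatum (r = -0.167, rho = -0.113, permutation p and adjusted p = 0.277) and the 12-month cortex (r = -0.239, rho = -0.117, permutation p = 0.101, adjusted p = 0.135) they did not pass. Without the 2 mice farthest from the median of *Arntl* the 4 values in that order were -0.525, -0.613, -0.023 and -0.16. Both genes moved with the slope on exon length in the 12-month striatum, *Arntl* by r = 0.564 and *Dbp* by r = -0.662, and with that slope removed the 12-month striatum gave r = -0.316 (adjusted permutation p = 0.0277), the 6-month cortex -0.592 (4e-05), the 12-month cortex -0.557 (6e-05) and the 6-month striatum -0.093 (0.543). With the means of sex within each group removed in place of group means, the values were nearer 0 in every set, at -0.427 (adjusted permutation p = 0.019) in the 12-month striatum, -0.505 (0.00304) in the 6-month cortex, -0.124 (0.560) in the 12-month cortex and -0.058 (0.722) in the 6-month striatum.

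**Figure D5:**
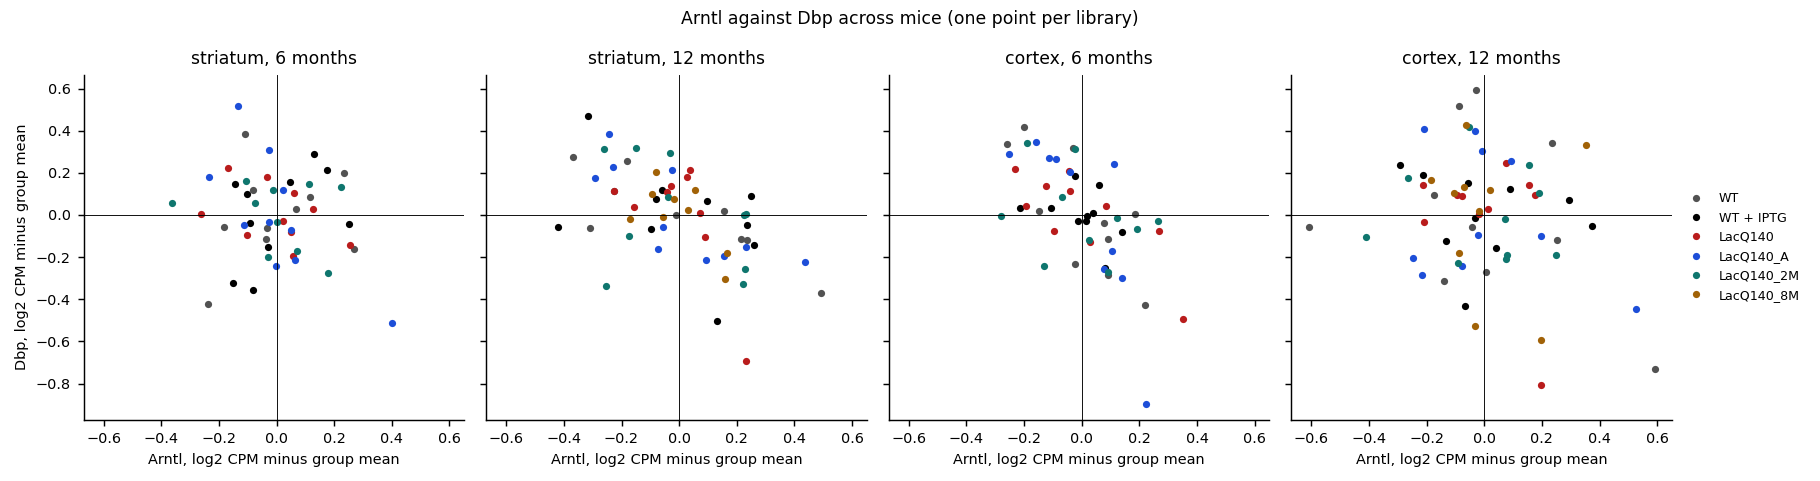
Deviation of log2 CPM from the group mean of *Arntl* (x axis) and *Dbp* (y axis), 1 point per library, coloured by group, in the 4 sets of tissue and age. Points fall from upper left to lower right in the 12-month striatum (r = -0.569) and the 6-month cortex (r = -0.626), and less so in the other 2 sets.

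Among the other pairs of the 10 genes, given as a description over the same libraries, the highest mean r over the 4 sets were those of *Per1* with *Per2* (0.567 to 0.785) and *Cry2* with *Nr1d1* (0.330 to 0.825), and the lowest were those of *Clock* with *Dbp* (-0.664 to -0.244) and of *Arntl* with *Dbp*. *Clock* itself moved with the slope on exon length (r from 0.396 to 0.899), as did *Cry2* (up to 0.913), *Npas2* (up to 0.849) and *Nr1d1* (up to 0.851, all 3 in the 12-month cortex), whereas *Cry1* did not (-0.026 to 0.175). Over 12398 genes, those whose deviations were most like *Dbp* by mean r over the 4 sets were *Ptms* (0.673), *Ciart* (0.664), *Itpka* (0.647), *Nol3* (0.636) and *Shf* (0.635). Those most like *Arntl* were *Dhx9* (0.562), *Mark1* (0.560), *Magi2* (0.533), *Arhgap20* (0.532) and *Pfkp* (0.531). The libraries of a set share depth and length bias, so these values describe likeness only.

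A further 20 genes of the clock, among them *Nr1d2*, the *Ror* genes, the PAR-domain relatives of *Dbp* and the casein kinases, were counted beside the 10. In the 12-month striatum 7 of the 20 fell and 1 rose in LacQ140 against WT + IPTG mice, where 4.86% of all genes fell and 4.58% rose, with a median log2 fold change of -0.13. The 5 with the smallest p-values were *Hlf* (log2 fold change -0.61, adjusted p = 4.52e-14) and *Tef* (-0.35, adjusted p = 9.58e-10), both PAR-domain relatives of *Dbp*, *Ciart* (-1.11, adjusted p = 9.77e-11), which encodes a repressor of BMAL1, *Bhlhe41* (-0.29, adjusted p = 9.58e-06), which encodes another E-box repressor, and *Usp2* (-0.27, adjusted p = 0.00121), which encodes a deubiquitinase.

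*Ciart* ran from 19.2 CPM through 23.5 CPM to 31.7 CPM in WT + IPTG mice and from 8.37 CPM through 11.5 CPM to 15.0 CPM in LacQ140 mice, and the groups did not overlap. WT mice ran from 17.5 CPM through 25.6 CPM to 37.3 CPM and did not overlap the LacQ140 mice either. *Ciart* and *Hlf* rose against LacQ140 mice in LacQ140_A mice (0.67 and 0.30, adjusted p = 0.000511 and 0.000270) and in LacQ140_2M mice (0.74 and 0.29, adjusted p = 0.000123 and 0.000686), and none of the 20 was called in LacQ140_8M mice. *Ciart* was also lower in LacQ140_A than in WT mice (-0.57, adjusted p = 0.000966).

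In the 6-month striatum *Rorb* fell in LacQ140 against WT + IPTG mice (-0.38, adjusted p = 0.00335) and *Nr1d2* in LacQ140_A against WT mice (-0.32, adjusted p = 0.00776). In the 6-month cortex *Ciart* was higher in LacQ140 than in WT + IPTG mice (0.63, adjusted p = 0.00875), opposite in sign to the 12-month striatum, and *Nr1d2* fell in LacQ140_A against WT mice (-0.37, adjusted p = 0.0485). No other of the 20 genes was called in the remaining comparisons.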

How the data were processed

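Total RNA from striatum and cortex of 217 mouse samples was sequenced as paired ends by the authors, who deposited expected counts per gene, 1 table per age. The submitters' processing notes name the GRCm38 build, and the aligner and counter are not given in the sources used here. All columns were mapped to samples by label. Here the estimated counts were rounded to whole numbers, genes with at least 1 count were kept, and each tissue and age was fitted with edgeR 4.0.16 (R 4.3.3; TMM scaling, quasi-likelihood test, group means over all groups). A gene was called at a Benjamini-Hochberg adjusted p-value under 0.05 over all genes and a change of at least 20%. Tests of tissue kept the mouse as a block. Alternatives were DESeq2 1.42.0, its size factors, filterByExpr, sex, replicate number or length slope as terms, only the groups compared, no bound on the fold change, and each library left out. The control group, the libraries high in other markers and removal of the length slope were alternatives chosen after seeing the data.

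Correlations used log2 CPM (prior count 2), centred on group or on group and sex, with 100000 permutations (Python 3.11.15, numpy 2.4.6, pandas 2.3.3, scipy 1.17.1, matplotlib 3.10.9). CPM per kb divides by exon length in GENCODE vM21. All 10 members are described; of 20 other clock genes those called are named, at most 5 per comparison by smallest p, and for *Arntl* and *Dbp* the 5 genes with the most alike deviations. Activity-induced, glucocorticoid-responsive, temperature-linked and marker lists are given as counts or sums, and some of their genes are not reported here. The members and lists were chosen with earlier results of these data known. The edgeR step was tested on simulated data. Sex labels matched in all 217 libraries, and in none of 963 pairs within groups were counts alike within sampling noise (lowest chi-square per degree of freedom 6.15). Replicates are separate mice.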

Additional observations from a re-analysis of the deposited data

Results flagged for a closer look

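Of 220 sets of 1 clock gene in 1 group, 13 held a sample at one end whose gap to its nearest neighbour was large for the range of the group (Dixon's ratio), where chance at 1 in 20 gives about 11. Those in striatum at 6 months were *Per1* in LacQ140 F5 (180 CPM, next 133 CPM), *Per3* in LacQ140 M5 (34.1 CPM, next 27.1 CPM), *Arntl* in LacQ140_A M2 (42.5 CPM, next 33.6 CPM), and *Clock* (35.4 CPM, next 53.5 CPM) and *Nr1d1* (121.03 CPM, next 94.5 CPM) in LacQ140_A F4. Those in striatum at 12 months were *Dbp* in LacQ140 M3 (55.7 CPM, next 83.9 CPM), *Per3* in WT M5 (20.2 CPM, next 28.1 CPM) and WT + IPTG M5 (37.1 CPM, next 31.5 CPM), *Cry2* in WT F2 (140 CPM, next 160 CPM) and *Clock* in WT + IPTG M4 (48.9 CPM, next 58.99 CPM). In cortex they were *Per1* in LacQ140_2M F4 at 6 months (63.4 CPM, next 85.1 CPM), and *Dbp* in LacQ140 M3 (22.8 CPM, next 39.1 CPM) and *Arntl* in LacQ140_A M4 (19.8 CPM, next 15.7 CPM) at 12 months. LacQ140 M3 thus had the lowest *Dbp* of its group in both tissues at 12 months.

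Groups differed in their effect for *Arntl* by sex, where the effect of IPTG in WT striatum at 12 months was 0.881 higher on the log2 scale in females than in males. They differed by tissue for LacQ140 against WT + IPTG, where the log2 fold change in striatum minus that in cortex was -0.299 for *Arntl* at 6 months and, at 12 months, -0.487 for *Arntl*, -0.831 for *Npas2*, -0.731 for *Per1*, -0.679 for *Per2*, -0.569 for *Nr1d1* and -0.6 for *Dbp*.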

How the results depend on the processing

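Of 272 counts and correlations recomputed under an alternative with no single library left out, 251 were kept. A count was kept when within 1.5 times its main value, and a correlation when its call stayed the same. Of 485 values of single clock genes (log2 fold changes, and correlations and differences between tissues), 435 kept their call or lack of one, 23 lost the call and 27 gained it. None changed sign where either value was called, and signs of values never called were not compared. Of 220 pairs of gene and comparison 192 were never called. Counts of called clock genes that moved by over 1.5 times were these, and the cause was not tested. With only the groups compared in the fit, the count went from 0 to 1 for LacQ140 against WT + IPTG and for WT + IPTG against WT in the 6-month cortex and for LacQ140_A against LacQ140 in the 12-month cortex, from 2 to 1 for LacQ140_A against LacQ140 in the 6-month striatum, and from 1 to 0 for LacQ140_A against WT there. Against WT mice without IPTG, 7 became 4 for LacQ140 in the 12-month striatum. With the length slope as a covariate, 2 became 1 for LacQ140_2M against LacQ140 in the 6-month striatum. Without the libraries high in other markers, LacQ140_A against LacQ140 went from 2 to 1 and LacQ140_A against WT from 1 to 0 in the 6-month striatum. In the 12-month striatum LacQ140_A against LacQ140 went from 0 to 1 (*Npas2*) under DESeq2, DESeq2 size factors, filterByExpr, no bound, only the groups compared, sex, the replicate block and the length slope. Without mice high in other markers, the difference of LacQ140 against WT + IPTG between striatum and cortex passed for 2 clock genes (from 6) at 12 months and 0 (from 1) at 6 months, in a fit with fewer mice. By 1.5 times or less, with no bound the count was 9 (from 7) for LacQ140 against WT + IPTG and 3 (from 2) for LacQ140_A against WT in the 12-month striatum, and 3 (from 2) for LacQ140 against WT + IPTG in the 6-month striatum. The correlation of *Arntl* and *Dbp* in the 12-month cortex went from -0.239 to -0.557 with the slope removed and to -0.124 with group and sex means removed.

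With each library left out in turn (98 fits), counts ran from 2 to 3 for LacQ140 against WT + IPTG, 1 to 3 for LacQ140_A against LacQ140, 0 to 2 for LacQ140_2M against LacQ140 and 0 to 1 for LacQ140_A against WT in the 6-month striatum, and from 7 to 8, 2 to 2 and 2 to 3 for LacQ140 against WT + IPTG, LacQ140_2M against LacQ140 and LacQ140_A against WT in the 12-month striatum. At 6 months, *Arntl* in LacQ140_2M was lost without LacQ140_2M F1 or F3 or LacQ140 F1 or M2, *Npas2* in both LacQ140_2M and LacQ140_A without LacQ140 M2, *Per2* in LacQ140_A without LacQ140_A F1, F2 or M1 to M4 or WT M3 or M4, and *Cry1* in LacQ140_A without any one of LacQ140 F1, F3, F4, F5, M4 and M5 and LacQ140_A F1 to F3 and M1 to M4. With the replicate number as a block the counts were 1 (from 2) for LacQ140_A against LacQ140 at 6 months and 1 (from 0) at 12 months, and it changed no other count by over 1.5 times. Same-numbered mice deviated together with a median r of 0.04 to 0.09 (over 0.1 in 35 of 100, 57 of 135, 46 of 100 and 64 of 150 pairs). Mice of different numbers were not set beside them, so these values cannot decide whether the numbers pair mice.

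One time of collection per mouse, not given in the labels, limits all comparisons, and all genes but *Cry1* moved with the length slope of their libraries in at least 1 set (highest r per gene 0.437 or more in size).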
